A study of Mus musculus with 13 samples.

Results

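The genes that encode the constant regions of mouse immunoglobulins were followed through single cells of thymus and spleen. The 10 members were taken by name from both gene lists, each of which holds 57010 genes. They are the heavy chain genes Ighm, Ighd, Ighg1, Ighg2b, Ighg2c, Ighg3, Igha and Ighe and the light chain genes Igkc and Iglc2. No member was chosen from its counts, but earlier results of these data were known when the members were fixed. Iglc1 and Iglc3, the other expressed lambda constant genes, were read beside them.

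Cells were indexed by split-pool barcoding, in which transcripts collect a well-specific barcode in each round. A Parse WT kit held 20 tissue samples, and 4 of them were the thymic lobes of 2 female C57BL/6N mice that were 2 months old and untreated. The other 16 carry the names CVS_C_1 to CVS_C_5, CVS_S_1 to CVS_S_6 and YD_C_1 to YD_C_5; the labels of the kit give thymus and spleen from young and adult mice, control and chronic stress, but do not say which name stands for what. These 16 are therefore described sample by sample and not compared as groups. A Parse Mini kit, labelled control, held the thymi of 2 further young female C57BL/6N mice, each divided into 2 technical replicates that are called lobes here too, so lobes of 1 mouse are not separate animals in either kit and the spread over 4 lobes is in part technical.

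A B cell first makes a heavy chain with the mu constant region (Ighm), which it can also splice to the delta region (Ighd), so a naive cell carries both IgM and IgD. After activation, the switch regions ahead of the constant genes are cut, the DNA between is lost, and a downstream gene is used in place of Ighm: Ighg1, Ighg2b, Ighg2c or Ighg3 for IgG, Igha for IgA, or Ighe for IgE. The light chain is kappa (Igkc) or lambda, and a plasma cell, the end stage of the lineage, exports antibody in bulk. Igha is the isotype of mucosal surfaces, Ighe that of mast cell and basophil responses, and Ighg3 is known from responses to polysaccharides.

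The 8 heavy chain members lie on the minus strand of chromosome 12 in the GENCODE M21 annotation of GRCm38, in the order Ighm, Ighd, Ighg3, Ighg1, Ighg2b, Ighg2c, Ighe and Igha, from chr12:113418558-113422730 for Ighm to chr12:113254830-113260236 for Igha. Igkc lies at chr6:70726435-70726966 on the plus strand, inside the long non-coding gene Gm30211 of the same strand, so reads of that gene cannot be told from those of Igkc by position. Iglc2 lies at chr16:19198396-19200351 on the minus strand and overlaps the joining segment Iglj2. The exons of a member sum to between 532 bases for Igkc and 2678 bases for Ighg2b.

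The 4 IgG genes are close relatives, and their hinge exons, which encode the flexible link between the arms and the stem of the antibody, differ in length and in their cysteines. The second exons of the GENCODE M21 transcripts are printed because the isotype shares that follow rest on telling these genes apart. Capitals mark the cysteine codons, which form the bridges between the heavy chains.
Ighg1, chr12:113329844-113329882: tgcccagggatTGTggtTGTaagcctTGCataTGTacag
Ighg2b, chr12:113307261-113307326: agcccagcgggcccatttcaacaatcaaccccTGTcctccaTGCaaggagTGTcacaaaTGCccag
Ighg2c, chr12:113288263-113288325: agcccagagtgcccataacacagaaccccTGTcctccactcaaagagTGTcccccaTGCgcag
Ighg3, chr12:113360529-113360576: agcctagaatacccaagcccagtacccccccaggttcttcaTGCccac
The exons run from 39 bases with 4 cysteine codons in Ighg1 to 66 bases with 4 in Ighg2b, while Ighg3 has 48 bases and 1. Over the whole transcripts, 5.49% of all stretches of 50 bases of Ighg2c recur in another of the 12 genes, against 4.15% in Ighg2b, 1.58% in Ighg3 and 0.393% in Ighg1. None recurs at a length of 100 bases, and none of either length recurs for Ighm, Ighd, Igha, Ighe or Igkc.

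Iglc2 and Iglc3 are the closest pair among these genes, and the lambda shares depend on which of them is counted. The same stretch of 120 bases of the constant exon is printed for the 3 lambda genes. Capitals in Iglc2 and Iglc3 mark the 7 positions where those genes differ from each other, and capitals in Iglc1 mark its 29 differences from Iglc2.
Iglc2, chr16:19198722-19198841: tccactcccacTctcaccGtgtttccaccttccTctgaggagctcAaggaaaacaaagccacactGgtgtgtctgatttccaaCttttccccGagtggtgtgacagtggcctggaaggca
Iglc3, chr16:19065551-19065670: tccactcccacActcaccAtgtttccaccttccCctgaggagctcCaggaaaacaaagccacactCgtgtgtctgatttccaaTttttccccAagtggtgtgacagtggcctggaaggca
Iglc1, chr16:19061941-19062060: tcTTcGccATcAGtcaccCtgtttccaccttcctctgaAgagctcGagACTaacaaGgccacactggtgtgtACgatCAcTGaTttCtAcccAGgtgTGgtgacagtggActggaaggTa
Of the stretches of 50 bases in Iglc2, 7.65% are also in Iglc3, and 10.7% of those in Iglc3 are also in Iglc2, so a short read from there could fall to either.

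After the limits of the study on unique molecular identifiers (UMIs) and mitochondrial reads, 81396 cells of the 16 samples remained, between 2095 and 8240 a sample with a median of 1525 to 7291 UMIs a cell, together with 39369 cells of the WT lobes and 19273 of the Mini lobes. Over all deposited cells, before these limits, the members took 629192 UMIs in the 16 samples, 31388 in the WT lobes and 9818 in the Mini lobes. Levels are given as CPM, the UMIs of a gene summed over the cells of a class in a sample and scaled to the same total of UMIs outside ribosomal RNA. Cells were clustered without any gene named as immunoglobulin and named from marker lists, so the counts of the members had no part in the classes. Gm30211, the gene around Igkc, does not carry such a name and was not left out on that ground. Whether it shaped the clusters was not examined. Intervals are exact binomial intervals at 95% and cover counting error only.

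In the 16 samples, 40383 cells were B cells and 1203 were plasma-like, 12 to 168 a sample. The 1480 germinal centre-like cells had the highest level of 9 of 9 of their markers among the 6 B cell classes compared, the 2259 marginal zone-like cells of 9 of 10, the 2165 transitional-like cells of 5 of 5 and the 10044 follicular-like cells of 4 of 5. The 7778 B1 or memory-like cells were highest for 6 of 10 markers. Cd5 and Ctla4, which mark B1 cells, were not among them, and neither were Nt5e and Tbx21. Plasma-like cells were highest for 12 of 13 markers over all named classes. A cluster of 1346 cells led by Parm1, Kcnt2, Itgax and Cadm1 raised 3 markers of the germinal centre list and 3 of the B1 or memory list, so it is left unnamed and called by its leading genes. For B cells, a sample enters a class where it holds at least 10 of its cells.

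Some libraries stood apart before any member was counted. B cells formed clusters almost wholly of 1 sample in CVS_C_3 (3640 cells), CVS_C_5 (2655 cells) and CVS_S_5 (1704 cells), and these are given apart from the classes. The variable segment Ighv1-67, which leads the CVS_C_3 population, had 4120 UMIs in CVS_C_3 and 548 in the 19 other samples of the plate. Of those, 44.9% lay in wells of the plate columns that CVS_C_3 used, which hold 23.2% of those samples' cells. One cluster of thymic B cells, called shallow here for its median of 1256.5 UMIs, had 71.2% of its 590 cells in those columns, against 23.6% of all thymic cells. Of its cells, 19.7% shared every later barcode with a CVS_C_3 B cell, against 5.93% of the other thymic B cells and 5.54% of thymocytes. The 20 leading genes of the CVS_C_3 population, which summed to 7167 CPM there, stood at 1429 CPM in the shallow cluster, 428 CPM in the deeper thymic B cells and 240 CPM in thymocytes. They stood at 582 CPM in B cells of the 15 other samples and at 773 CPM in thymic B cells of the Mini kit, which did not hold CVS_C_3. The main levels and switched shares of thymic B cells are given with and without the shallow cluster. In all, 82.4% of cells of the WT kit shared their later barcodes with some other cell, and 460 full cell barcodes occurred in both kits.

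Follicular-like B cells, the recirculating majority of the spleen, held 43.7% of their heavy chain constant UMIs on Ighm and 54.2% on Ighd, and the other named B cell classes and plasma-like cells all had less Ighd than Ighm. Ighm in follicular-like cells was between 694 and 1368 CPM over 15 samples, with a median of 1008. Ighd lay between 888 and 1795 CPM, with a median of 1169. Per kilobase of exon, Ighd had a median level of 615 CPM and Ighm of 535, while Igkc stood at 396 and Iglc2 at 147. The study found many unspliced transcripts in its Parse data. How many UMIs of the members come from introns was not examined, so the order per kilobase of exon is not read further.

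Transitional-like cells, the newest arrivals from the marrow, had the highest median Ighm of the named B cell classes. Their Ighm was between 1339 and 2530 CPM over 10 samples, with a median of 1870. Within a sample it was 1.86 times that of follicular-like cells at the median, from 1.41 to 2.31 times, and higher in 10 of 10 samples. Of 8800 genes compared in the same way, 2.67% were higher in every sample and 4.99% lower, and Ighm was the only member of the 7 that passed the limit of 200 UMIs to fall in either set. Ighd was lower in 9 of 10 samples, at 0.665 times, and Igkc was higher in 9 of 10, at 1.25 times. Iglc2 was higher in 9 of 10 samples with a median of 176 CPM, and 1 sample held no Iglc2 UMI.

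Marginal zone-like cells sit at the border of the splenic follicles and answer blood-borne antigens. They had less Ighd than follicular-like cells and, in most samples, somewhat less Ighm. Their Ighd was between 301 and 1014 CPM over 14 samples, with a median of 623. The ratio to follicular-like cells of the same sample had a median of 0.506, and Ighd was lower in 14 of 14 samples. Ighm had a ratio of 0.863 and was lower in 13 of 14, with the highest sample at 1.06. Igkc, at 0.593 times, was also lower in 14 of 14. Ighd and Igkc were thus lower in every sample among the 8 members that passed the limit, where 2.88% of 9418 genes were lower and 2.24% higher. Ighg3 was higher in 11 of 14 samples, at 2.68 times, with a median of 49.6 CPM.

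B1 or memory-like cells combined high Ighm with low Ighd, and their median Ighg3 was above that of follicular-like, marginal zone-like and transitional-like cells. Ighm was between 683 and 1768 CPM over 16 samples, with a median of 1178. It was higher than in follicular-like cells in 13 of 15 samples, at 1.25 times. Ighd, with a median of 329 CPM, was 0.287 times the follicular-like level and lower in 15 of 15. Ighg3 lay between 24.3 and 266 CPM with a median of 73.5, and was higher in 15 of 15 samples. Ighg3 and Ighd were the members that moved one way in every sample among the 8 that passed the limit, where 3.71% of 10534 genes were higher and 4.35% lower. The class was not even in its variable genes: the leading Ighv segment took between 8.33% and 62.2% of Ighv UMIs over 13 samples, and in CVS_S_2 it was Ighv11-2, a segment known from B1 cells.

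**Figure D1:**
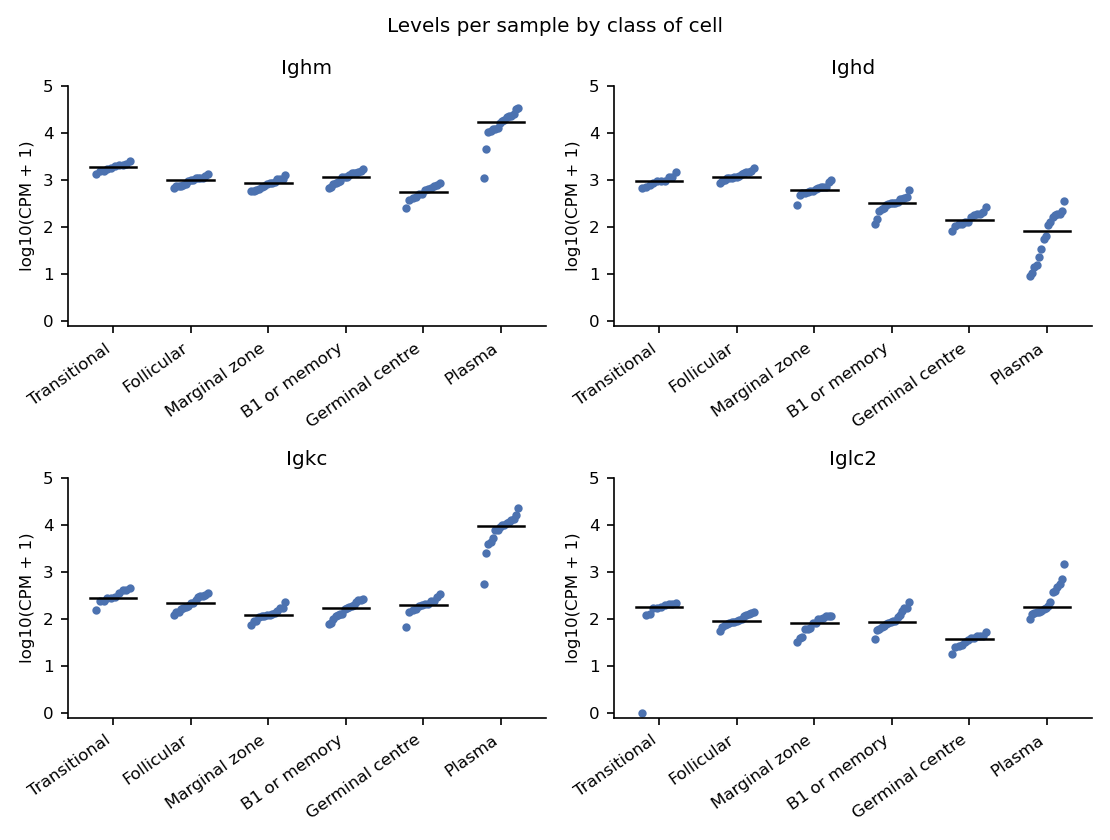
Levels of Ighm, Ighd, Igkc and Iglc2, as log10(CPM + 1), with 1 point per sample and a bar at the median, for the classes of cells of the 16 samples with at least 10 cells of the class. Ighm and Igkc are highest in plasma-like cells, while Ighd falls from a median of 1169 CPM in follicular-like to 145 in germinal centre-like and 87.7 in plasma-like cells.

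Germinal centre-like cells, in which antibody genes mutate and switch, had less Ighm, Ighd and Iglc2 and more of the IgG genes. Ighd was between 84.1 and 271 CPM over 12 samples, with a median of 145, and Ighm between 255 and 888, with a median of 575. Ighd was 0.120 times the follicular-like level, Ighm 0.584 times and Iglc2 0.330 times, each lower in 12 of 12 samples. Ighg1 had a median of 113 CPM against 15.2 in follicular-like cells and was higher in 12 of 12. Ighg3, at 125 CPM, was also higher in 12 of 12, Ighg2b (96.0 CPM) in 10 of 12 and Ighg2c (68.9 CPM) in 10 of 12. Of 9304 genes, 6.35% were higher in every sample and 7.61% lower; Ighg3 was among the former, and Ighm, Ighd and Iglc2 among the latter. Ighg1 and Ighg2c passed the limit of 200 UMIs only through germinal centre-like cells, so their place is not counted here. Igha was low and uneven, with a median of 7.29 CPM and a range from 0 to 176.

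Among the genes of class switching, Msh6, a mismatch repair protein, had 133 CPM in germinal centre-like cells against 47.6 CPM in follicular-like cells and was higher in 12 of 12 samples. No gene of that list that passed the limit was lower in every sample. Of the 10 genes of the receptor complex and its signalling, 6 were lower in every sample, among them Cd79a and Cd79b, the partners that carry the signal of surface immunoglobulin and are B cell markers here.

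Switched cells were then called one by one. A cell was called where it held at least 2 heavy chain constant UMIs and 75% of them were switched (Ighg, Igha or Ighe) or unswitched (Ighm or Ighd). This gave a call for 29564 of 40383 B cells, and 1110 of them, or 3.75% (interval 3.54 to 3.98), were switched. By sample the share lay between 0.821% in CVS_C_3 and 19.2% in CVS_S_4, with a median of 4.29%. Without the clusters almost wholly of 1 sample the median was 4.81%.

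Germinal centre-like cells and the cluster led by Parm1, Kcnt2 and Itgax held switched cells at shares well above the other classes. In germinal centre-like cells 330 of 869 were called switched, or 38.0% (interval 34.7 to 41.3), and the 8 samples with at least 10 calls lay between 30.5% and 60%. In the cluster led by Parm1 it was 415 of 787, or 52.7% (interval 49.2 to 56.3), between 27.3% and 75.4% over 13 samples. The share was 0.960% in follicular-like cells (83 of 8649), 1.04% in marginal zone-like cells (19 of 1820) and 1.56% in B1 or memory-like cells (88 of 5636). An unnamed cluster of 5059 cells with a median of 1108 UMIs stood between, at 5.83% (126 of 2163). No transitional-like cell of 1925 was switched, which allows a share of up to 0.191%. The depth of these groups differed, from a median of 1108 UMIs in that unnamed cluster and 2144 in transitional-like cells to 4304 in germinal centre-like cells.

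**Figure D2:**
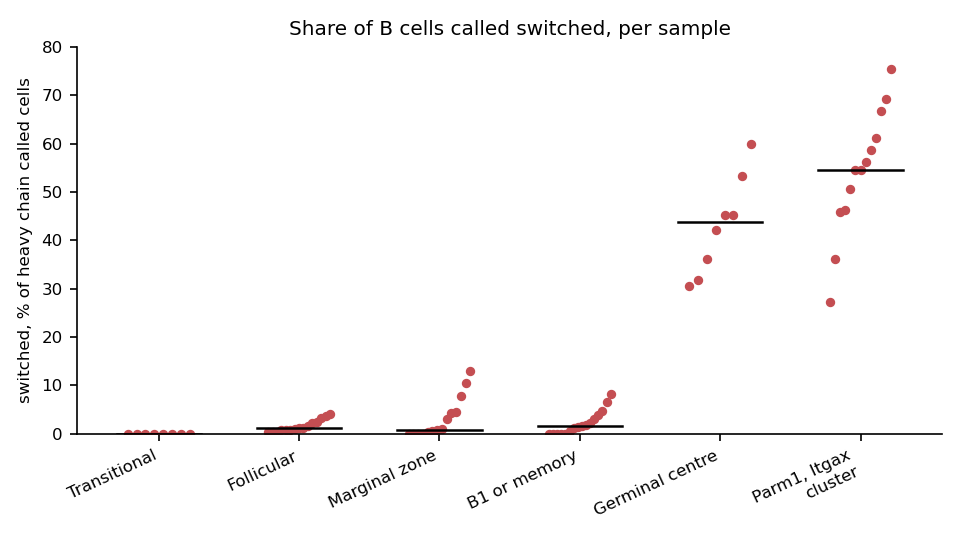
Share of cells called switched, in percent of cells with a heavy chain call, with 1 point per sample with at least 10 calls and a bar at the median. The germinal centre-like class and the cluster led by Parm1 and Itgax lie at medians of 43.7% and 54.5%, and the 4 other classes shown have medians between 0% and 1.47%.

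The mix of isotypes was read among the switched UMIs of several classes, over samples that differ between them. The YD_C samples held 1276 of 1480 germinal centre-like cells but 67 of 1346 cells of the cluster led by Parm1. As pooled shares of switched UMIs, not corrected for length, germinal centre-like cells held 28.7% Ighg3, 25.6% Ighg2b, 22.1% Ighg2c, 17.6% Ighg1, 4.57% Igha and 1.43% Ighe. This order is mostly that of the YD_C samples, where Ighg1 lay between 4.22% and 20% and Ighg2c between 17.0% and 39.2%. Over the CVS samples with at least 10 of these cells, with 15 to 66 switched UMIs each, Ighg1 lay between 14.3% and 70.8% and Ighg2c between 0% and 14.3%. The cluster led by Parm1 held 32.7% Ighg1 and 26.8% Igha. In the 10 samples with at least 20 switched UMIs in both, the Igha share was higher in that cluster in 8 and the Ighg3 share in 2. The Ighg1 share was higher there in 4, the Ighg2b share in 3 and the Ighg2c share in 6. The pooled order of Ighg1, and that of Ighg2c with 6.14% in that cluster, thus did not hold within samples. In B1 or memory-like cells 70.1% of switched UMIs were Ighg3 (2438 UMIs), and in marginal zone-like cells 62.3%. Of these classes 533 and 69 cells held 2 or more Ighg3 UMIs, but far fewer were called switched. Most cells with that much Ighg3 were thus not called switched. Igha led in plasma-like cells, with 58.6% of switched UMIs, followed by Ighg1 with 18.4%.

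Plasma-like cells held far more of most members than follicular-like cells and less Ighd. The members took 3.68% of UMIs outside ribosomal RNA in plasma-like cells at the median of 16 samples, between 0.422% in CVS_C_1 and 5.94% in CVS_S_5, against 0.193% in B cells, where samples lay between 0.0958% and 0.320% and did not overlap with plasma-like cells. Without the 5 plasma-like cells of most heavy chain UMIs in each sample they did overlap, the lowest of the 15 samples left, CVS_C_1, being at 0.282%. Over single plasma-like cells the share reached 17.3%. Ighm was between 1105 and 33942 CPM, with a median of 17156, and within a sample 17.5 times the follicular-like level. Igkc was between 536 and 22856 CPM, with a median of 9310, and 35.1 times higher. Per kilobase of exon Igkc, at a median of 17500 CPM, was above Ighm, at 9097, with the same limit on UMIs from introns.

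Igha had the highest median level of the switched genes in plasma-like cells, though Ighg3 stood above it in CVS_C_3 and Ighg2b in YD_C_1. It was between 1306 and 8691 CPM over the 16 samples, with a median of 3220, and 362 times the follicular-like level, higher in 15 of 15 samples. Ighg1 had a median of 1008 CPM and was higher in 14 of 15, and Ighg2b, with 531 CPM, in 14 of 15. Ighg2c had a median of 287 CPM and was higher in 15 of 15, by 153 times over the 11 samples with any follicular-like UMI. Ighg3 had a median of 94.1 CPM, and Ighe of 3.23 CPM. Ighd was lower in 15 of 15, at 0.0916 times. Of 9261 genes compared, 4.23% were higher in every sample and 11.4% lower, and among the members Ighm, Igha, Igkc, Iglc2 and Ighg2c were higher in every sample and Ighd lower. Ighg2c and Ighe, with 40 and 16 UMIs in follicular-like cells, passed the limit of 200 UMIs only through plasma-like cells, so nothing is read from the number of members that passed.

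The genes around the members went both ways. Of 10 genes of antibody secretion 9 were higher in every sample, but 8 of the 10 are markers that named the class, and Jchain, Prdm1, Tent5c, Derl3 and Sdc1 passed the limit of 200 UMIs only through plasma-like cells, so nothing is read from that count. The pair that named nothing were Ell2, an elongation factor tied to the secreted form of the heavy chain, at 711 against 82.1 CPM, and Pou2af1, a co-activator of immunoglobulin genes, at 850 against 559 CPM. Jchain, which joins IgM and IgA into polymers, was at 1634 against 3.16 CPM, and Xbp1, which drives the secretory programme, at 474 against 21.2 CPM. Mzb1, an IgM-binding chaperone, was higher in 14 of 15 samples. Of 10 receptor partners 8 were lower in every sample, with Cd79a at 84.4 against 336 CPM and Cd22, a brake on receptor signalling, at 161 against 1136 CPM. These classes share the follicular-like cells of each sample as their reference.

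Single plasma-like cells were mostly of 1 isotype. Of 1203 cells, 1083 had at least 10 heavy chain constant UMIs, and 1060 of these had 75% or more on a single gene. Ighm dominated in 619 of the 1060, or 58.4% (interval 55.4 to 61.4), and Igha in 254, or 24.0% (interval 21.4 to 26.6). Ighg1 dominated in 66 cells, Ighg2c in 52, Ighg2b in 45, Ighg3 in 20 and Ighe in 4. No cell was dominated by Ighd, which allows a share of up to 0.347%. Cells dominated by Ighm held a median of 89 heavy chain constant UMIs in all, those dominated by Igha 57 and those dominated by Ighg2c 21.5.

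The isotype mix of plasma-like cells varied widely among samples. As a share of heavy chain constant UMIs, Ighm lay between 31.4% in CVS_C_1 and 89.1% in CVS_C_5, with a median of 70.4%. Igha lay between 5.99% in YD_C_1 and 37.1% in CVS_C_1, with a median of 16.3%, and stood above 30% also in YD_C_3 (34.3%) and CVS_S_4 (33.7%). CVS_C_1 rests on 18 cells and 105 heavy chain UMIs. Ighg3 was highest in CVS_C_3 with 18.2%, where 12 cells were plasma-like and 1 of them held all 794 Ighg3 UMIs. That cell held 40.5% of the Ighg3 UMIs of all plasma-like cells. Ighe, which dominated 4 cells in all, reached 4.26% in CVS_S_2, where 1 cell held all 159 UMIs. The cells excluded for more than 25000 UMIs included 11 nearest to plasma-like cells, with 6925 member UMIs against 160998 in those kept.

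**Figure D3:**
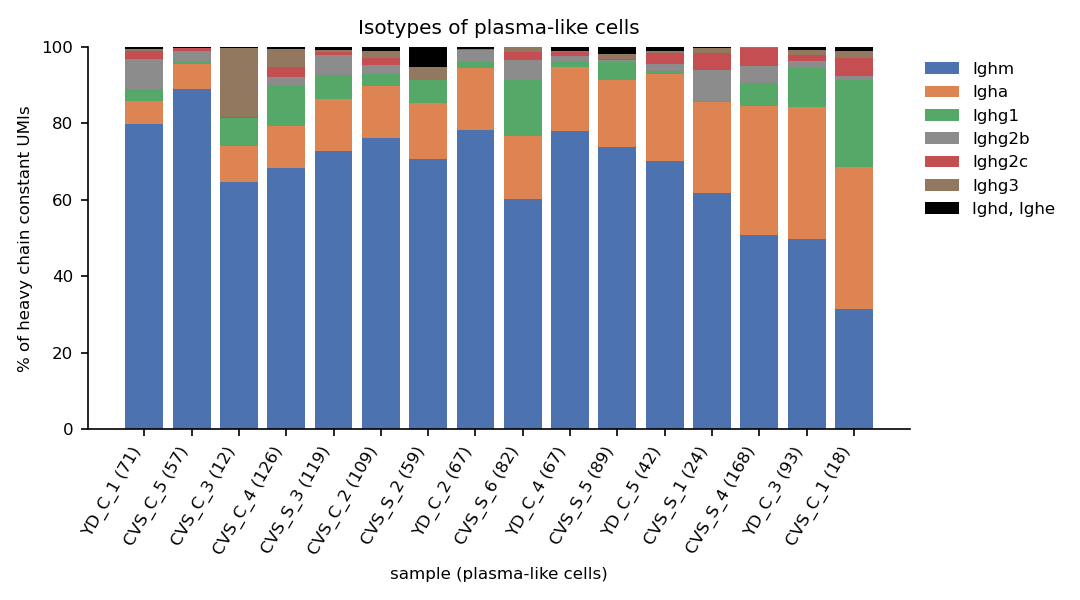
Heavy chain constant UMIs of plasma-like cells, in percent, for the 16 samples in order of their Igha share, with the number of cells in brackets. Ighm takes the largest part in 15 of the samples, and Igha in CVS_C_1.

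Among light chains, Igkc led in follicular-like, transitional-like, marginal zone-like, B1 or memory-like, germinal centre-like and plasma-like cells, and its share was highest in the last. UMIs counted for Gm30211, the gene around Igkc, are outside these shares, and how they divide between the classes was not examined. The same limit holds for every Igkc level and ratio given here. In proliferating B cells Iglc3 took 75.2% in the 95 cells of CVS_C_5 and no more than 13.6% in any of the 11 other samples, where Igkc had a median of 55.6%. As a share of the UMIs of Igkc, Iglc1, Iglc2 and Iglc3, Igkc took 61.1% in follicular-like, 53.7% in transitional-like, 50.7% in marginal zone-like, 76.2% in germinal centre-like and 86.1% in plasma-like cells. Iglc2 ran the other way, from 32.5% in marginal zone-like cells to 11.8% in germinal centre-like and 3.08% in plasma-like cells. Within samples Iglc2 was still 2.99 times higher in plasma-like than in follicular-like cells, in 15 of 15 samples, against the 35.1 times of Igkc. Iglc1 had a median of 480 CPM in plasma-like and 9.06 CPM in follicular-like cells. It was higher in plasma-like cells in 14 of 15 samples, at 67.9 times.

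Calls of single cells by the same rule set Iglc2 against Igkc. They named 5625 B cells, and the share called lambda lay between 6.90% in CVS_S_5 and 61.4% in CVS_S_1, with a median of 21.2% over samples. With Iglc1 and Iglc3 counted as lambda the median was 35.8%. By class the share was 15.97% in follicular-like cells (interval 14.0 to 18.1), 30.3% in marginal zone-like (interval 25.1 to 35.9), 24.3% in transitional-like (interval 20.3 to 28.8) and 4.71% in germinal centre-like cells (interval 2.60 to 7.78). In plasma-like cells 883 of 964 cells with at least 5 UMIs of Igkc and Iglc2 together had 90% or more on 1 of these genes. In follicular-like cells it was 49 of 196, so most follicular-like cells with that many UMIs held UMIs of both. With calls from 1 UMI the median lambda share over samples was 30.6%, and with calls from 3 UMIs 11.5%. Gm30211, the gene around Igkc, held 104946 UMIs in the kept cells of the 16 samples, against 80307 of Igkc. The share called lambda is therefore not read as the share of lambda cells.

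**Figure D4:**
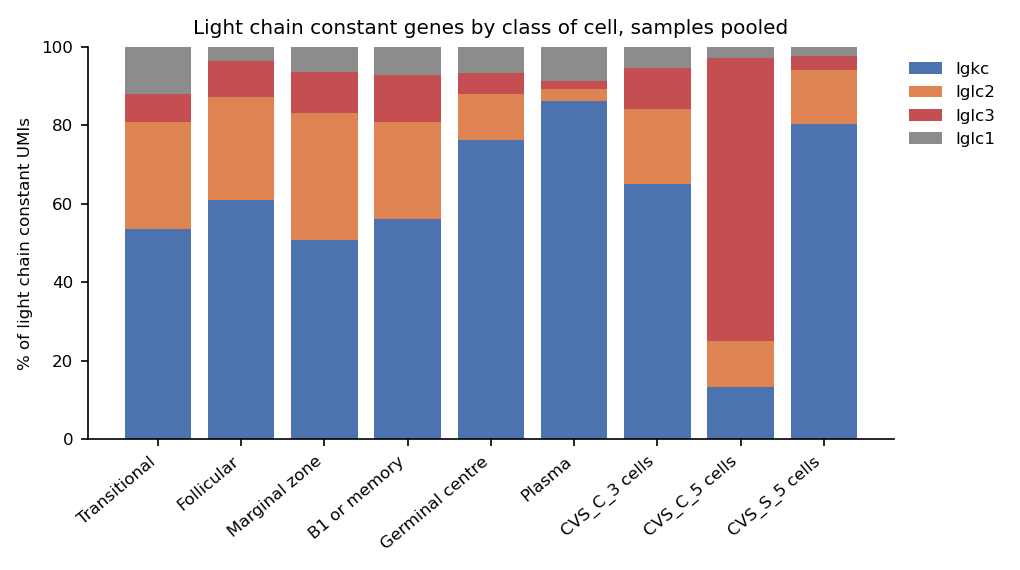
Share of light chain constant UMIs on Igkc, Iglc2, Iglc3 and Iglc1, in percent, for the classes and for the populations almost wholly of CVS_C_3, CVS_C_5 and CVS_S_5, samples pooled. Igkc rises to 86.1% in plasma-like cells, and Iglc3 takes 72.2% in the CVS_C_5 population. UMIs of Gm30211, the gene around Igkc, are not included.

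The populations almost wholly of 1 sample had different leading variable segments, and that of CVS_C_5 also had its own mix of light chain constant genes. In the CVS_C_5 population Iglc3 took 72.2% of light chain UMIs and Igkc 13.3%, and Iglv1 took 84.9% of Iglv UMIs. Ighv9-3 took 77.0% of its Ighv UMIs. Its Ighg3 was 9.93% of heavy chain UMIs and 94.0% of switched UMIs, with 730 cells at 2 or more Ighg3 UMIs, but of 2279 cells with a heavy chain call 8 were called switched, or 0.351%. In the CVS_C_3 population Ighv1-67 took 93.4% of 3716 Ighv UMIs and Igkv4-68 took 46.6% of Igkv UMIs, with Igkc at 65.0% of light chain UMIs. In a cluster of 1131 cells, mostly of CVS_S_1, Ighv5-12 took 95.1% of the Ighv UMIs of that sample. In the CVS_S_5 population Ighv1-34 took 15.7% of 204 Ighv UMIs and Igkv1-110 took 43.4% of 212 Igkv UMIs, against 10.3% for the same Igkv segment in follicular-like cells. For comparison, the leading Ighv segment of follicular-like cells took between 4.27% and 10.6% over 14 samples.

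The genes whose levels ran most like those of the members over 14 named classes were partly of the secretory programme. This is a description over classes that share depth and library, with no test. Ighm was nearest to Mzb1 (Pearson r = 0.95 of log2 CPM), the chaperone that binds it, with Gm30211 and Irf4 at the same rounded r. Igha was nearest to Jchain (r = 0.94), which joins IgA into dimers. Mzb1, Irf4 and Jchain are among the markers that named plasma-like cells, so their likeness to these members is in part built in. Igkc was nearest to Txndc5 (r = 0.91), a disulphide isomerase of the endoplasmic reticulum. Ighd was nearest to Fcmr (r = 0.97), the Fc receptor for IgM, and highest in the same class. Iglc2 was nearest to Gm30211 (r = 0.97), the non-coding gene around Igkc. Ighg3 was nearest to Neurl1a (r = 0.94), Ighg1 to Chst1 (r = 0.92), Ighg2b and Ighg2c both to 4933421O10Rik (r = 0.92 and 0.95), and Ighe had too few UMIs. Among the members themselves, the closest pair was Ighg1 and Ighe (r = 0.97), with 611 UMIs of Ighe in all, followed by Ighg2b and Ighg2c (r = 0.96). Ighd and Igha had r = −0.09.

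In the thymus a small set of resident B cells presents antigen to developing T cells. The WT lobes held 826 B cells, of which 590 were in the shallow cluster and 236 in the deeper one. The deeper cluster made up 0.572% ± 0.106 of cells (SD, n = 4 lobes), and the 131 Mini B cells 0.677% ± 0.136 (SD, n = 4 lobes). In the deeper cluster 10 of 11 B cell markers were above thymocytes, in the Mini cells 10 of 11 and in the shallow cluster 11 of 11. The T cell markers, 10 in all and none at 0, summed to 10020 CPM in the deeper cluster, 12000 CPM in the shallow cluster and 9802 CPM in the Mini B cells, against 15450 CPM in WT and 18370 CPM in Mini thymocytes; the part of T cell RNA in these cells was not tested.

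Thymic B cells held switched isotypes in every lobe of both kits. Ighm in the deeper cluster was 569, 405, 340 and 968 CPM in the lobes, and in the Mini B cells 536, 363, 556 and 2250 CPM. With the shallow cluster the WT mean was 610 ± 324 CPM for Ighm and 128 ± 98.7 CPM for Ighd (SD, n = 4 lobes). Ighd was 131 ± 104 CPM in the deeper cluster and 165 ± 47.2 CPM in the Mini B cells (SD, n = 4 lobes each), below every follicular-like sample. No level was corrected for T cell RNA in these clusters, so that order is not read as less Ighd per B cell. The share called switched was 15.4%, 18.2%, 28.1% and 13.0% in the lobes of the deeper cluster, a mean of 18.7% ± 6.65 (SD, n = 4 lobes). With the shallow cluster it was 14.5% ± 8.42, between 3.92% and 24.3%. With it, but without wells in the plate columns of CVS_C_3, it was 18.1% ± 5.601 (SD, n = 3 lobes left). In the Mini lobes it was 19.2%, 34.8%, 27.8% and 29.2%, a mean of 27.7% ± 6.43. These shares rest on 13 to 77 calls a lobe in the deeper cluster and 18 to 26 in the Mini lobes, and the ranges of the kits overlap.

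A handful of cells carried most of the switched UMIs. Of 826 Igha UMIs in thymic B cells of the WT kit, 2 cells held 472 and 249, or 87.3%. In the Mini kit 2 cells held 55.6% of 390 Igha UMIs and 80.4% of 168 Ighg2c UMIs, and 1 cell held 344 of 690 Ighm UMIs. Cells with 50 or more heavy chain constant UMIs numbered 6 in the WT and 5 in the Mini kit. The Igha level of the deeper cluster, 503 CPM pooled, is therefore mostly that of 2 cells, while Ighg2b (129 UMIs over 52 cells in the WT kit) and Ighd (271 UMIs over 174 cells) were spread more widely. In the lobe with the highest Igha level, Ighv8-8 took 95.2% of 249 Ighv UMIs.

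Light chains of thymic B cells were mostly kappa in the WT kit. Igkc took 88.0% of light chain UMIs in the deeper cluster and 90.6% in the shallow one. Of all 1028 Igkc UMIs 2 cells held 275 and 168, or 43.1%, and 102 of the 164 in the shallow cluster came from 1 lobe. Of 52 light chain calls in the deeper cluster 5 were lambda, or 9.62% (interval 3.20 to 21.03), and of 20 in the Mini B cells 6, or 30% (interval 11.9 to 54.3). The intervals overlap.

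Thymocytes, which are T cell precursors and make no antibody, held Ighm in every lobe, stage and well. Their Ighm was 91.8, 79.7, 92.1 and 73.0 CPM in the WT lobes, a mean of 84.2 ± 9.40 (SD, n = 4 lobes). In the Mini lobes it was 66.6, 72.9, 61.5 and 68.8 CPM, a mean of 67.4 ± 4.76 (SD, n = 4 lobes). The highest Mini lobe lay just below the lowest WT lobe. By first-round well Ighm lay between 73.0 and 101 CPM in the WT kit and between 51.4 and 80.3 CPM in the Mini kit. T cell-like cells of the 16 samples were between 63.9 and 130 CPM with a median of 86.5 CPM, and thymic B cells of the deeper cluster at 571 ± 282 CPM.

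The other members did not keep pace with Ighm in thymocytes. Igkc was 5.45 ± 1.44 CPM in the WT and 0.844 ± 0.351 CPM in the Mini lobes (SD, n = 4 lobes each), and the kits did not overlap. Ighd was 6.41 ± 1.32 CPM in the WT and 3.10 ± 0.903 CPM in the Mini lobes. The ratio of Ighm to Igkc UMIs was 25.4, 11.5, 15.0 and 14.3 in WT thymocytes, a mean of 16.6 ± 6.10, and 13.0 ± 2.85 over the 3 lobes left without those wells. It was 51.2, 88.9, 138 and 85.1 in Mini thymocytes, a mean of 90.8 ± 35.8. In thymic B cells it was 1.71 ± 0.548 in the WT kit (1.34 ± 0.753 without the shallow cluster) and 2.86 ± 2.32 in the Mini kit. In T cells of the 16 samples it lay between 1.94 and 6.88, with a median of 3.597. Thymocytes of each lobe were thus above the B cells of every lobe and the T cells of every one of the 16 samples in this ratio.

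Ighm of thymocytes also came with few variable segments. Per 100 heavy chain constant UMIs, thymocytes held between 1.56 and 2.53 Ighv UMIs in the WT lobes and between 0 and 0.405 in the Mini lobes. Thymic B cells held between 6.43 and 39.9 in the deeper cluster and between 3.13 and 23.4 in the Mini lobes. Pooled over samples, the value was 7.30 in follicular-like cells, 22.6 in plasma-like cells and 8.29 in T cells of the 16 samples. Pooled over lobes, Cd79a, without which the receptor is not displayed, stood at 1.95 CPM in WT and 0.618 CPM in Mini thymocytes.

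By stage, the Ighm means of the WT kit ran from DN-like cells (59.4 ± 8.87 CPM) through cells in selection (65.3 ± 7.50), CD4 SP-like (76.8 ± 6.70), proliferating (84.8 ± 8.95) and DP-like cells (92.9 ± 12.8) to thymocytes with no stage name (101 ± 16.7), each over 4 lobes. Within lobes, CD4 SP-like cells were above cells in selection and below proliferating cells in 4 of 4, while cells in selection were above DN-like cells in 3 of 4, DP-like above proliferating cells in 3 of 4 and thymocytes with no stage name above DP-like cells in 3 of 4. In the Mini kit DN-like cells were again low, at 55.3 ± 3.30 CPM, with CD4 SP-like cells at 55.8 ± 5.32, and DP-like cells at 74.3 ± 9.93. DP-like, proliferating and unnamed thymocytes were above both in 4 of 4 Mini lobes. After thinning each cell to 1000 UMIs the low end of the Mini order changed, with CD4 SP-like cells at 45.7 CPM and DN-like cells at 68.5 CPM. In the WT kit DN-like cells were still lowest, at 56.8 CPM, and unnamed thymocytes highest, at 99.2 CPM. Thymocytes with no stage name were the shallowest cells, with a median of 1705 UMIs in the WT and 1552 in the Mini kit.

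At full depth 24.2% of WT and 19.2% of Mini thymocytes held an Ighm UMI. After thinning each cell to 1000 UMIs, with 2924 WT and 2179 Mini thymocytes left out as too shallow, the shares were 6.31% (interval 6.05 to 6.57) and 5.83% (interval 5.48 to 6.19). Thymic B cells stood at 25.2% in the WT kit (24.7% without the shallow cluster) and 28.8% in the Mini kit, and the myeloid and dendritic clusters of the thymus at 7.26% (interval 5.22 to 9.79) and 6.02% (interval 2.93 to 10.8). Those clusters include pDC-like cells, at 16.7% in the WT and 8.08% in the Mini kit. Without them the rest stood at 5.37% (interval 3.47 to 7.88) and 2.99% (interval 0.364 to 10.4). The share in thymocytes lay within both, but these intervals pool cells over lobes, and the Mini one rests on 2 of 67 cells. They cannot decide whether thymocytes differ from those clusters, and the share in thymocytes is not read as expression on its own. For Igkc the thinned share was 0.482% in WT and 0.0955% in Mini thymocytes, against 2.23% and 0% in the myeloid and dendritic clusters. With thymocytes that held a UMI of a defining B cell marker left out, Ighm was 84.5 CPM in the WT and 67.5 CPM in the Mini kit. Where the UMIs of thymocytes come from was not tested.

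**Figure D5:**
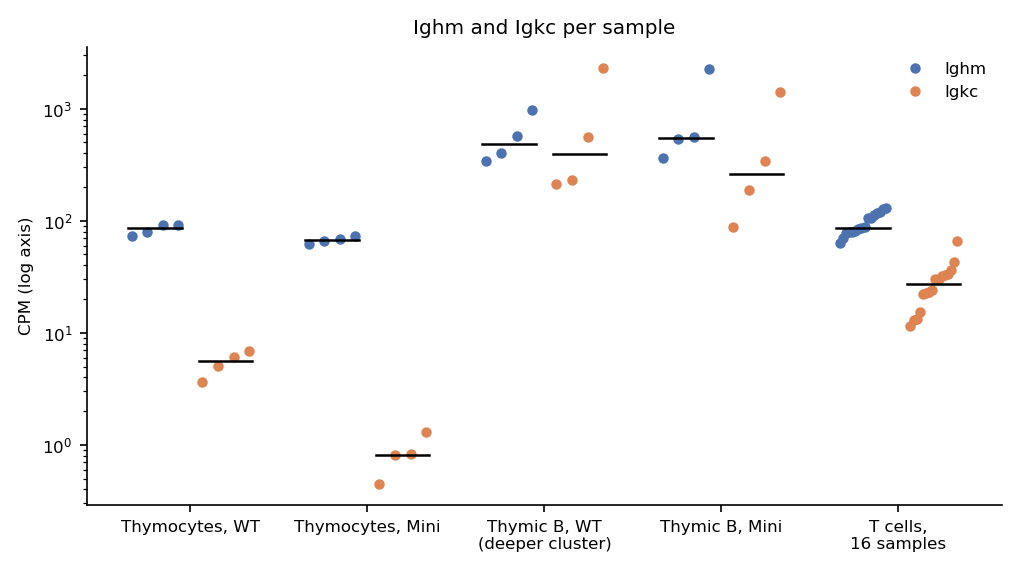
Ighm and Igkc in CPM on a log axis, with 1 point per lobe or sample and a bar at the median, for thymocytes and thymic B cells of both kits and for T cells of the 16 samples. Ighm of thymocytes lies between 61.5 and 92.1 CPM in both kits, while Igkc lies between 0.446 and 6.95 CPM.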

How the data were processed

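UMI counts per cell and gene were used as deposited. The authors mapped the reads of each sublibrary with split-pipe to mm10 and combined the sublibraries. Replicates were kept apart in values given by sample or lobe, while other counts, shares and levels sum over samples or lobes. The sources used here name no version. The 4 WT thymic samples were told from the other 16 by their name prefix, which occurs in no other sample; no value depends on which mouse a lobe came from. The limits of the study were applied to cells: no fewer than 500 and no more than 25000 UMIs, with mitochondrial reads up to 15%. Rn18s-rs5, mt-Rnr1 and mt-Rnr2 were left out of totals. Each cell table has 8 more columns, left unread, and 10x data were not analysed here.

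Cells were clustered (Python 3.11.15, igraph 0.11.9, 2500 genes, 30 components, 20 neighbours) without 393 immunoglobulin genes, mitochondrial and T cell receptor segments and 1181 genes that varied between wells, and named from marker lists with limits set after the data had been seen. Clusters led by markers of 2 lineages were set aside (11158 cells of the 16 samples). The study removed called doublets from its Parse data, but here cells like simulated doublets were left out only in an alternative. That alternative dropped a fixed share of each sample, smaller than the share the study called doublets, so doublets can remain in it. Members and lists were chosen with earlier results of these data known. Genes with at least 200 UMIs over both classes were compared within samples, and counted where they were higher or lower in every sample. This procedure was tested on simulated data. No test between groups was made, since the labels put no group on the 16 samples and lobes of 1 mouse are not separate animals. Genes named were the members, the lists of receptor partners, class switching and antibody secretion, leading genes of clusters and the 3 most alike genes of each member. Part of the class switching list is not reported here. Coordinates, exon lengths and sequences come from GENCODE M21, matched by identifier; 52029 of 57010 identifiers matched (91.3%), so the annotation behind the counts is not that release. The study's methods name an Ensembl source without a release, and do not say whether counting used strand.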

Additional observations from a re-analysis of the deposited data

Results flagged for a closer look

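Of 8 values over the 4 lobes of a kit that were examined for a lobe far from the others, 1 stood out. The ratio of Ighm to Igkc UMIs in Mini thymic B cells was 6.33 in lobe T-2-A and between 1.58 and 1.95 in the other lobes. The gap between that lobe and the next took 0.923 of the whole range, above Dixon's critical value for 4 samples. The lobe had 27 B cells with 57 Ighm and 9 Igkc UMIs, and without it the mean ratio was 1.71. Chance alone marks about 1 in 20 such groups.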

How the results depend on the processing

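Over all alternatives, 144 of 150 recomputed values stayed within 1 SD over samples or lobes of the reported one, and 6 moved further. None turned its direction, but most are levels or shares, which have none. That SD is wide for some values, such as 4.30 for the switched share of B cells, itself 4.29%. The alternatives without the shallow cluster, the clusters almost wholly of 1 sample, the wells in the plate columns of CVS_C_3 or the 5 plasma-like cells richest in heavy chain UMIs, and the sum of the lambda genes, were chosen after seeing the data. The share of lambda calls rose from 21.2% to 35.8% with Iglc1 and Iglc3 counted as lambda, was 30.6% with calls from 1 UMI and fell to 11.5% with calls from 3 UMIs. With cells thinned to 1000 UMIs the switched share of WT thymic B cells was 27.5% and their Ighm to Igkc ratio 2.68. With cells that held a UMI of a T cell marker left out that ratio was 3.12. Over all UMIs, ribosomal RNA included, Ighm of thymocytes was 64.9 CPM in the WT and 58.0 CPM in the Mini kit, because the denominator is larger. The Ighm to Igkc ratio of Mini thymocytes was 59.2 after the same thinning and 65.6 with no upper limit of UMIs, against 90.8. The cause of the other shifts was not tested.

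Leaving out each lobe in turn, the switched share of thymic B cells ranged from 11.2% to 18.0% in the WT and from 25.4% to 30.6% in the Mini kit. Ighm of thymocytes ranged from 81.5 to 87.9 CPM and from 65.6 to 69.4 CPM. The Ighm to Igkc ratio ranged from 13.6 to 18.2 in WT thymocytes, from 1.48 to 1.93 in WT thymic B cells, from 75.03 to 104 in Mini thymocytes and from 1.71 to 3.29 in Mini thymic B cells. Over all their alternatives the plasma share of the members ranged from 2.29% to 4.59%, the plasma Igha share from 15.1% to 18.7%, the switched share of B cells from 2.82% to 5.75%, and the marginal zone to follicular ratio from 0.841 to 0.879 for Ighm and from 0.469 to 0.522 for Ighd. No paired analysis was possible because no result comes from a fit that could take a replicate block. Classes within samples and stages within lobes were compared as counts, and those pairings were not tested. Depth limits the calls: 13.9% of B cells gave a light chain call and 73.2% a heavy chain call.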

Other observations

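Plasmacytoid dendritic cells, which sense viral nucleic acids and share part of their transcription factors with B cells, were read for Ighm beside other cells. Pooled over samples, pDC-like cells of the 16 samples were at 539 CPM (670 cells), against 237 CPM in macrophage or monocyte-like cells and 235 CPM in cDC-like cells. In the thymus pDC-like cells were at 211 CPM in the WT kit (91 cells, 135 Ighm UMIs) and 111 CPM in the Mini kit (99 cells, 68 Ighm UMIs). Stromal or endothelial cells of the WT lobes were at 46.4 CPM (95 cells, 31 Ighm UMIs). These levels were not tested against each other.

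A cluster of 652 B cells led by interferon-stimulated genes had 3 of 549 cells called switched, or 0.546% (interval 0.113 to 1.59).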
